A study of Arabidopsis thaliana with 8 samples.

Results

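The ribosomal RNA operon of the plastid genome, with rrn16S, trnI, trnA, rrn23S and rrn4.5S, was described by its Hi-C contacts, which count pairs of DNA ends that were ligated while lying close together. The operon lies in the inverted repeat and is therefore present in 2 copies, at 101001 to 108000 and, in the opposite direction, at 131001 to 138000 of the plastid map (TAIR10). All bin pairs of the contact table with at least 1 of these 14 bins of 1 kb were taken, which gave 2079 of 12090 bin pairs (17.2%) for 14 bins (9.03% of all). Of these pairs, 14 joined a bin to itself, 32 joined a bin to its image in the other copy, which spans 2 bins, or to a bin next to these, 1845 joined the operon to a place more than 5 kb away and 188 were other near pairs. Reads from the repeat copies cannot be told apart by sequence, so the copies were treated as 1 place and pairs between images were set apart. Folding the copies in this way merged the bins of the 2 copies, and distance was measured between places.

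The libraries were made from leaf chloroplast membranes of Arabidopsis thaliana, wild type, ecotype Col0. Plants were 14 days old and grown at 22 °C with 16 h of light and 8 h of darkness, and 5 g of rosette leaves were used, per the labels' protocols. The 4 crosslinked libraries were treated first with EGS (5 mM, 45 min) and then with formaldehyde (4%, 4 h), agents that join neighbouring molecules chemically, and the 4 non-crosslinked libraries served as negative controls. All 8 libraries carry the same protocol text, so only the treatment label and the title separate the groups. Nothing in the labels says whether replicates came from separate plants, and p-values therefore measure only the spread between these libraries.

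Plastid ribosomes are of the bacterial type, and their large RNAs are transcribed together from this operon: rrn16S encodes the RNA of the small subunit, rrn23S and the short rrn4.5S encode RNAs of the large subunit, and trnI and trnA encode transfer RNAs in the spacer between them. The operon is among the most strongly transcribed regions of the plastid genome, and plastid DNA is packed with proteins into nucleoids that lie at the thylakoid and envelope membranes.

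Total contacts ranged from 351828 to 543800 in crosslinked and from 357017 to 708524 in non-crosslinked libraries, and replicates 1 and 2 of each group were deeper than replicates 3 and 4. From replicate 1 to replicate 4, contacts over 5 kb made up 9.79%, 5.61%, 4.78% and 3.12% of all contacts with crosslinks and 7.14%, 5.24%, 0.742% and 1.03% without. Non-crosslinked replicates 3 and 4 thus held few long-range contacts, 2649 and 4227 in all, against 10979 or more in each other library. Values of single libraries are listed below in the order of replicates 1 to 4. No sequence of the operon was read, since no genome of this build was used here.

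The question put to the operon as a whole was how much of the contact map it took up with and without crosslinks. Its pairs held 11.7%, 11.7%, 10.9% and 10.96% of all contacts in crosslinked libraries and 11.8%, 13.9%, 8.32% and 8.54% in non-crosslinked libraries. The groups overlapped, and the crosslinked libraries lay inside the range of the non-crosslinked ones. On average it was 11.3% ± 0.433 with and 10.6% ± 2.68 without crosslinks (SD, n = 4 each). These means lay 0.675 percentage points apart, less than the spread between libraries (two-sided exact permutation test, p = 0.6). In the deeper libraries the difference was -1.14 points, in the shallower ones 2.49 points. Most operon contacts were local: contacts within a bin made up 39.9% ± 3.20 and contacts between images 33.5% ± 1.83 of the operon's contacts in crosslinked libraries, against 45.6% ± 3.51 and 36.1% ± 1.21 in non-crosslinked libraries (SD, n = 4 each). The same-bin contacts of the operon were split evenly between its copies, with 48.5% to 49.6% placed in the copy at 101001 to 108000 in each of the 8 libraries.

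The operon took a larger share of the long-range contacts in crosslinked libraries. It held 18.6%, 16.7%, 16.7% and 14.9% of the contacts over 5 kb in crosslinked libraries and 14.1%, 14.6%, 7.78% and 9.01% in non-crosslinked libraries. The groups did not overlap, although the lowest crosslinked library and the highest non-crosslinked library were close. On average it was 16.7% ± 1.51 with and 11.4% ± 3.46 without crosslinks (SD, n = 4 each). The difference of 5.38 percentage points gave p = 0.0286 in a two-sided exact permutation test, which is as low as 4 against 4 libraries allow. For comparison, the operon made up 17.1% of the bin pairs over 5 kb. The crosslinked libraries therefore lay around that share, and all 4 non-crosslinked libraries lay below it.

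These shares rested on 9929, 4874, 2934 and 1641 operon contacts in crosslinked libraries and on 7126, 4716, 206 and 381 in non-crosslinked libraries. The 95% Wilson interval of the share was widest in non-crosslinked replicate 3, from 6.82% to 8.86%, and covers counting error only. In the deeper libraries the difference was 3.34 points, in the shallower ones 7.41 points. The operon's share moved with the long-range percentage of the library, both being lowest in non-crosslinked replicates 3 and 4, and the part of that percentage in the result was not tested. In absolute terms the groups overlapped, with 183, 93.6, 79.7 and 46.6 long-range operon contacts per 10000 contacts in crosslinked libraries and 100.6, 76.2, 5.77 and 9.33 in non-crosslinked libraries. Leaving out any 1 crosslinked replicate raised the p to between 0.0857 and 0.114, with differences of 4.74 to 5.97 points. With distance taken along the circle, so that pairs between images counted as long-range, the groups differed by -0.331 points (two-sided exact permutation test, p = 0.857).

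**Figure D1:**
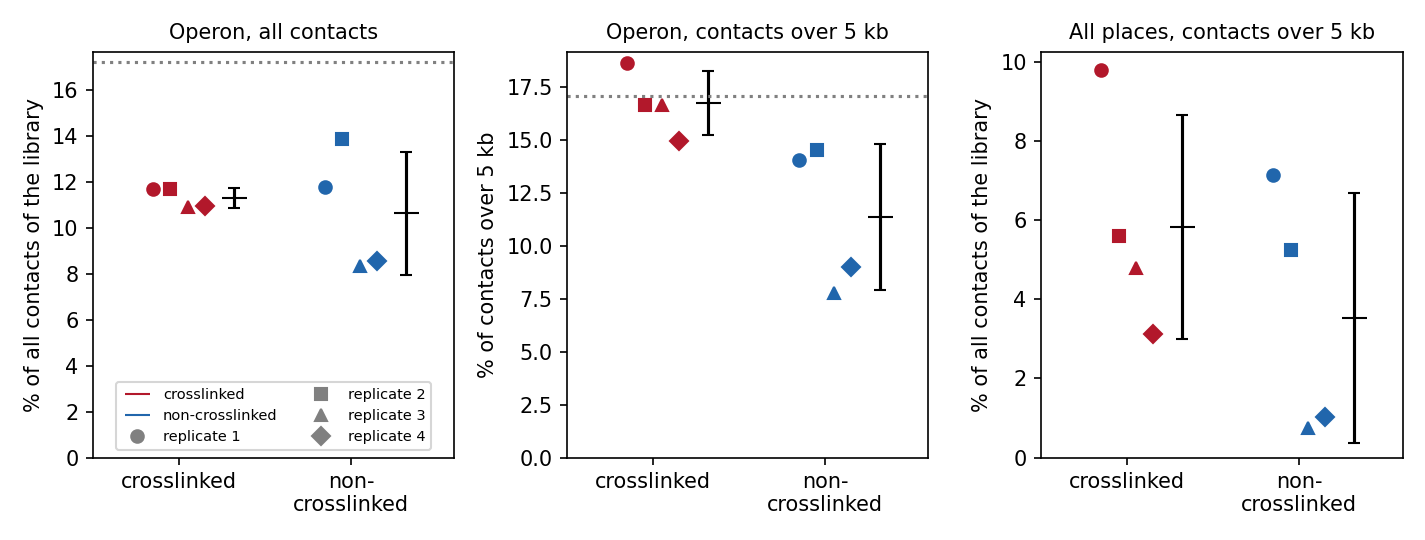
Operon share of all contacts (left), operon share of contacts over 5 kb (middle) and share of contacts over 5 kb in the whole library (right), in percent, for each library, with the mean and SD of 4 libraries in black. Dotted lines mark the operon's share of bin pairs, 17.2% of all pairs and 17.1% of pairs over 5 kb; in the middle panel the crosslinked libraries lie around the line and the non-crosslinked ones below it.

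Along the operon, the rise in long-range contacts was located at the rrn16S end and the spacer. The contacts of each place over 5 kb were counted per 10000 long-range contacts of the library. The spacer place 103001 to 104000, which holds parts of trnI and trnA and lies between the rRNA genes, had 333, 286, 318 and 259 in crosslinked libraries and 176, 164, 98.2 and 137.2 in non-crosslinked libraries. All crosslinked libraries were above all non-crosslinked ones. The log2 change was 0.88 ± 0.13 (SE; edgeR quasi-likelihood test, adjusted p = 2.74e-05), the largest of the 7 operon places.

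Both rrn16S places were also higher in crosslinked libraries. At 101001 to 102000, the contacts per 10000 were 297, 271, 255 and 260 in crosslinked libraries and 199, 224, 121 and 104 in non-crosslinked libraries. The log2 change there was 0.53 ± 0.16 (SE; edgeR, adjusted p = 0.00869), without overlap between groups. At 102001 to 103000, which holds the end of rrn16S and the start of trnI, the means were 275 ± 29.1 and 173 ± 49.96 (SD, n = 4 each) and the groups again did not overlap (log2 change 0.49 ± 0.14, edgeR adjusted p = 0.00759). At 104001 to 105000, with trnA and the start of rrn23S, the change was 0.38 ± 0.15 (edgeR, adjusted p = 0.0387), the groups overlapped, and the call was lost without any 1 of crosslinked replicates 1, 2 and 3 or non-crosslinked replicate 4 (adjusted p of 0.0613 to 0.123).

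The rrn23S places did not pass the test. Their log2 changes were 0.06 ± 0.14 at 105001 to 106000, 0.15 ± 0.19 at 106001 to 107000 and -0.03 ± 0.12 at 107001 to 108000, which also holds rrn4.5S (edgeR, adjusted p of 0.501 to 0.810). In the shallower libraries alone, the place 106001 to 107000 was higher by 0.94 on the log2 scale (edgeR, adjusted p = 0.00195). Of the 7 operon places, 4 were thus higher, 0 were lower and 3 did not overlap between groups, while over all places 32.8% were higher, 36.7% were lower and 69.5% did not overlap. The median log2 change was 0.38 over the operon places and 0.07 over all places.

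These changes are relative to the long-range contacts of each library. When the totals of all contacts set the scale, the median place rose by 0.83 on the log2 scale and the operon places ranged from 0.68 to 1.62, with no operon place called (edgeR, adjusted p of 0.711 to 0.777, and 0 at an unadjusted p under 0.05). The spacer place stayed the highest of the 7 on that scale, and the 3 rrn23S places were below the median place.

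The ends of the operon stood apart in each crosslinked library, while without crosslinks the ratio of rrn16S to rrn23S was near 1. The mean long-range contacts of the rrn16S places (101001 to 103000) over those of the rrn23S places (105001 to 108000) were 1.34, 1.39, 1.37 and 1.35 in crosslinked libraries and 1.02, 0.980, 1.08 and 0.909 in non-crosslinked libraries. The spacer place over the rrn23S places gave 1.49, 1.43, 1.64 and 1.41 in crosslinked and 0.857, 0.741, 0.876 and 1.02 in non-crosslinked libraries. Neither ratio overlapped between the groups, in the deeper or in the shallower libraries. These ratios compare places of the same library, so the library's total cancels. They were formed after the values were seen and carry no test.

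**Figure D2:**
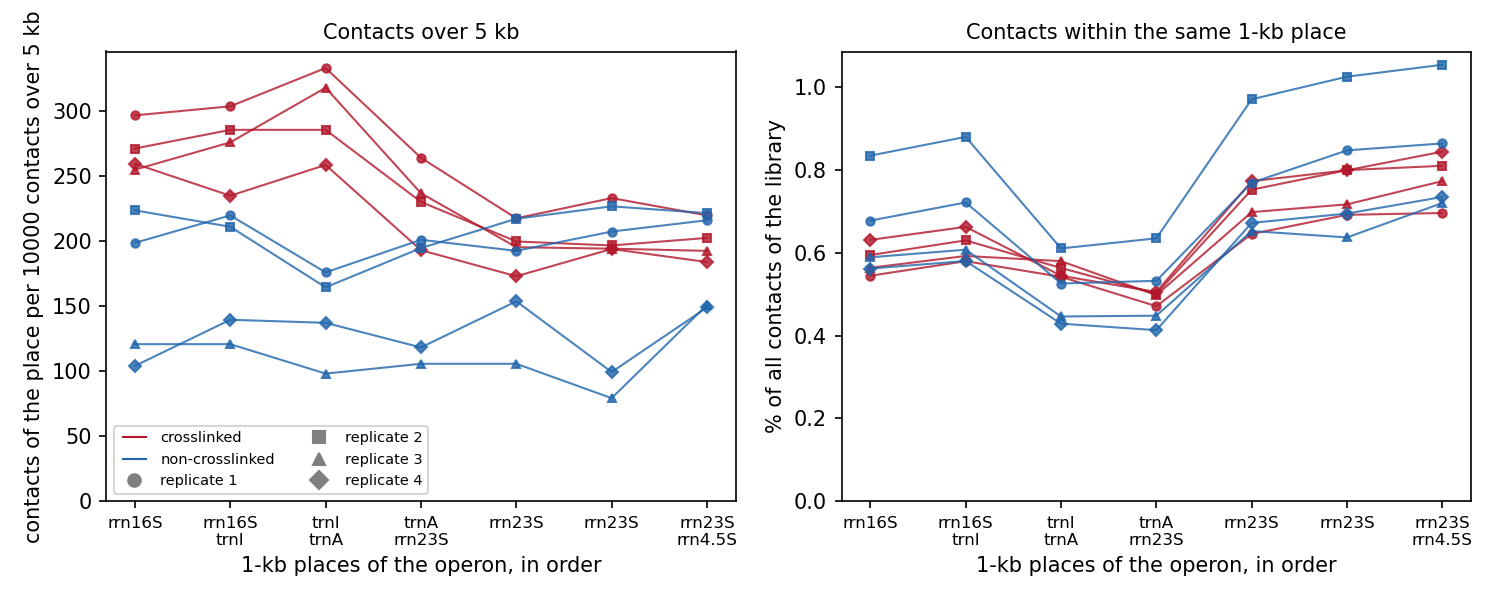
Contacts of each 1-kb place of the operon over 5 kb, per 10000 contacts over 5 kb (left), and same-bin contacts as a percentage of all contacts of the library (right), with a line for each library and the genes of each place below. On the left the crosslinked lines lie above all non-crosslinked ones at the rrn16S and spacer places and mix with them at the rrn23S places; on the right the lowest place of every library is the spacer place or the next one.

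Contacts within a bin had another profile along the operon. In all libraries they were lowest at the spacer place or at the next place, 104001 to 105000. The rrn16S places had 0.8294, 0.778, 0.792 and 0.803 times the same-bin contacts of rrn23S places in crosslinked libraries and 0.846, 0.843, 0.893 and 0.815 times in non-crosslinked libraries. For the spacer place the ratio was 0.800, 0.715, 0.795 and 0.676 in crosslinked and 0.636, 0.600, 0.666 and 0.612 in non-crosslinked libraries. The spacer place was thus lower relative to rrn23S in each non-crosslinked library than in any crosslinked one, a pattern noticed in the values and not tested. Compared with the rest of the repeat, the operon held 1.17 ± 0.0506 times as many same-bin contacts per bin in crosslinked and 1.17 ± 0.207 times in non-crosslinked libraries (SD, n = 4 each).

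Differences at individual place pairs were tested over the folded table, in which 370 of 8360 rows had enough contacts. Of these 370, 30.5% were higher and 26.2% lower in crosslinked libraries, and 48.1% did not overlap between groups. The operon had 907 rows, of which 69 were tested, 13 were higher, 1 was lower and 13 did not overlap (edgeR, adjusted p under 0.05). Of the 13 higher rows, 8 were under the minimum count in at least 1 non-crosslinked library and so passed the filter through the crosslinked libraries, and the count is a description. The replicate numbers paired the libraries in this table, and with the replicate as a block 28 operon rows were higher and 4 lower. Without crosslinked replicates 1 and 2 in turn, 6 and 8 rows were called. Without crosslinked replicate 4 there were 28, and without non-crosslinked replicates 1 to 4 there were 27, 22, 27 and 31. No share over the whole table is given for the replicate block or with 1 library left out. These counts therefore describe the operon rows only.

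Same-place contacts of the operon did not pass the test at any of its 7 places, with log2 changes from -0.29 to 0.05, while over all places of the genome 70 were lower and 5 higher. With every library in the test, the median log2 change of same-place contacts was -0.20 over the operon places and -0.23 over all places. In the deeper libraries alone 6 of the 7 were lower, and in the shallower libraries the changes ran from -0.01 to 0.29. No count over the genome is given for either subset, so these values describe the operon places only.

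Adjacent places changed most beside the spacer. The pair of 102001 to 103000 and 103001 to 104000 held 575, 501, 347 and 298 contacts in crosslinked libraries and 285, 273, 103 and 99 in non-crosslinked libraries. Crosslinked libraries were above all non-crosslinked ones even as counts, and the log2 change was 1.34 ± 0.16 (edgeR, adjusted p = 2.15e-05). The pair of the spacer place and 104001 to 105000 rose by 1.24 ± 0.20 on the log2 scale (edgeR, adjusted p = 0.000186). With no filter on low counts these 2 changes were 1.05 and 0.98 and were not called (edgeR, adjusted p of 0.0995 and 0.130). The other adjacent pairs that passed lay within or at the start of rrn23S and changed less, by 0.48, 0.32 and 0.41 from the trnA end onwards (edgeR, adjusted p of 0.0124, 0.0273 and 0.0234), and none of these 3 passed in the deeper libraries alone (edgeR, adjusted p of 0.722 to 0.960). The latter 2 were also lost without some single libraries of either group (edgeR, adjusted p of up to 0.148 and 0.0720). The pair inside rrn16S had a log2 change of 0.35 (edgeR, adjusted p = 0.0536). Of all 127 adjacent pairs tested in the genome, 75 were higher and 12 lower.

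The spacer stood low among the operon's adjacent pairs in every library. The 4 other adjacent pairs inside the operon held on average 1.84, 2.08, 1.88 and 2.11 times as many contacts as the 2 at the spacer in crosslinked libraries. In non-crosslinked replicates 1 to 4 they held 3.55, 3.42, 3.62 and 4.84 times as many. The gap at the spacer was therefore wider in each non-crosslinked library than in any crosslinked one, which follows the tested changes above and is no separate evidence.

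Pairs between images fell into separate classes by offset. The 7 pairs of a bin and its image, and the 8 offset by 1 bin in the direction in which an image spans the bin boundary, held most of the contacts between images. Only the image pair of 102001 to 103000 was called, at -0.38 on the log2 scale with overlap between groups (edgeR, adjusted p = 0.0497). That call was lost without TMM (edgeR, adjusted p = 0.227), with no filter (0.356) and without any 1 of crosslinked replicates 1 to 3 or non-crosslinked replicate 1 (0.0668 to 0.111), and the change in the shallower libraries was -0.03. In the deeper libraries alone 6 of the 7 and 6 of the 8 pairs were lower, with no count over the genome given for that subset. Over all 64 pairs between images tested in the genome with all 8 libraries, 19 were higher, 15 lower and 37 without overlap.

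The 8 pairs offset by 1 bin in the other direction held few contacts. Summed over all 8, the contacts numbered 308, 216, 147 and 66 in crosslinked libraries and 57, 50, 4 and 6 in non-crosslinked libraries. They amounted to 2.37%, 1.54%, 1.63% and 0.723% of the contacts of the 7 image pairs in crosslinked and 0.274%, 0.219%, 0.0545% and 0.0695% in non-crosslinked libraries, without overlap. Of these 8 pairs 6 passed the filter and all 6 were called higher, but such rows could enter the test through the crosslinked libraries alone, so the sums are given as a description. Outside the operon, 13 of 43 tested pairs between images were higher and 14 lower, a count not split by offset.

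Of 33 other rows tested, 2 were called, both with rrn16S and both higher. Over all 51 such rows tested in the genome 14 were higher and 0 lower, and of the 18 outside the operon 12 were higher, so the operon's share was the lower one. Contacts of 101001 to 102000 with the spacer place numbered 61, 25, 23 and 10 in crosslinked and 13, 10, 1 and 1 in non-crosslinked libraries. Contacts of 101001 to 102000 with 86001 to 87000, which holds rpl23 and the start of ycf2, numbered 41, 16, 10 and 9 against 7, 5, 1 and 0. Both rows rest on few contacts without crosslinks, and both calls were lost without crosslinked replicate 1 (edgeR, adjusted p of 0.0534 and 0.0836), the first also without crosslinked replicate 3 or non-crosslinked replicates 3 and 4 in turn (0.0532 to 0.0681). With the replicate as a block 15 of the 33 were called higher, 7 of them with an rrn16S place, and no count over the genome is given for that setting.

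Over the operon's own length, contacts at separations of 2 to 6 kb were compared with the rest of the repeat. Operon pairs held 11.8, 6.07, 3.09 and 1.65 contacts per bin pair in crosslinked libraries and 6.11, 4.38, 0.109 and 0.109 in non-crosslinked libraries. Divided by the pairs of the rest of the repeat at the same separations, the ratios were 1.68, 1.68, 1.20 and 1.05 in crosslinked and 3.28, 3.49, 1.69 and 1.20 in non-crosslinked libraries. The operon was above the rest of the repeat in all 8 libraries, and the ratio was higher in the deeper libraries of each group. The groups overlapped, and the difference of -1.01 was within the spread between libraries (exact permutation test, two-sided p = 0.114). Non-crosslinked replicates 3 and 4 held only 6 operon contacts each at these separations, and without replicate 4 the difference was -1.42 (p = 0.0286, exact permutation test). Against the large single copy region the ratio did not pass the test either (0.106 higher in crosslinked libraries, exact permutation test, p = 0.686).

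**Figure D3:**
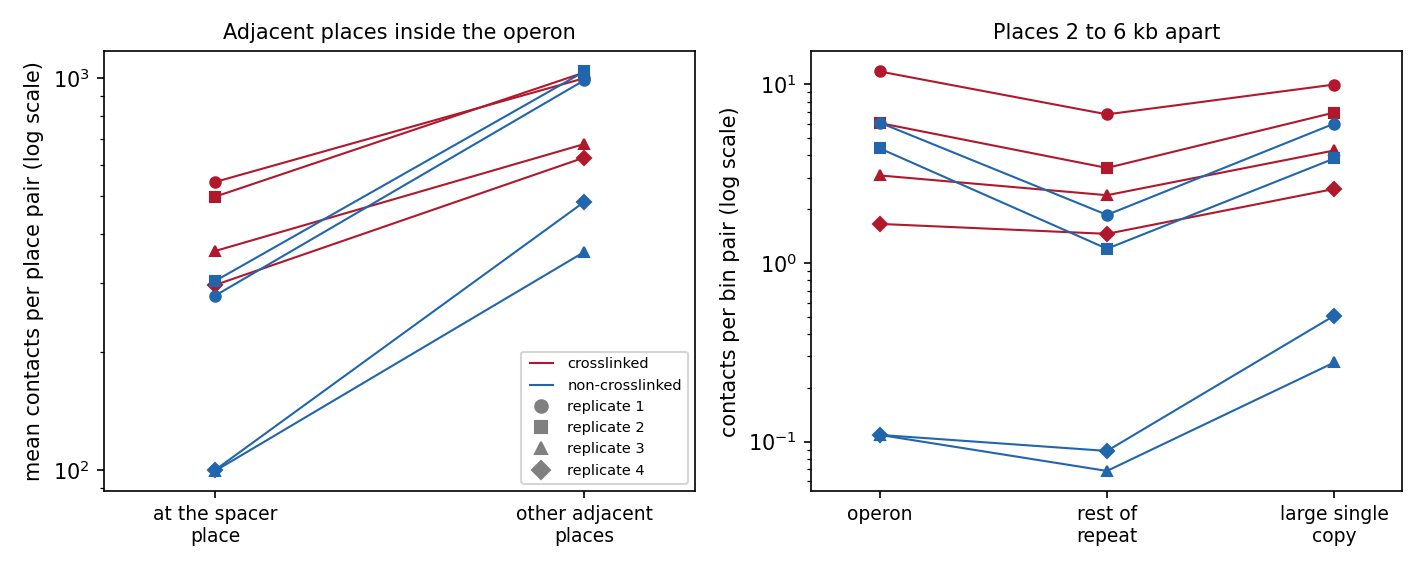
Mean contacts per pair of adjacent places inside the operon (left, 2 pairs at the spacer place and 4 others) and contacts per bin pair at separations of 2 to 6 kb in the operon, the rest of the repeat and the large single copy region (right), on log axes, with a line for each library. On the left the step from the spacer to the other pairs is steeper in non-crosslinked libraries; on the right the operon is above the rest of the repeat in all 8 libraries.

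The partners of the operon's long-range contacts were then compared. The large single copy region, which carries most photosynthesis genes, took 63.6%, 64.6%, 64.0% and 65.8% of them in crosslinked and 69.2%, 67.6%, 62.6% and 65.4% in non-crosslinked libraries. The remainder of the inverted repeat took 25.7%, 22.8%, 25.0% and 22.8% against 16.9%, 18.9%, 16.0% and 16.0%, without overlap. The small single copy region took 10.4%, 12.4%, 10.8% and 11.3% against 13.7%, 13.2%, 20.9% and 18.6%, also without overlap. Operon contacts in crosslinked libraries thus held more of the repeat and less of the small single copy region, values that are given without a test.

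Once each place's total of long-range contacts was taken into account, the contrast at the repeat turned. The expected value comes from the totals of both places, and the fall of contacts with distance beyond 5 kb did not enter it. Observed over expected contacts with the rest of the repeat were 1.17, 1.17, 1.16 and 1.16 in crosslinked and 1.22, 1.37, 1.41 and 1.28 in non-crosslinked libraries. All 8 libraries were above 1, and the groups did not overlap. The difference was -0.155, with p = 0.0286 in a two-sided exact permutation test and an adjusted p of 0.0857 over the 3 regions. Without balancing the totals it was 0.509 in the opposite direction (adjusted p = 0.0857, exact permutation test). For the large single copy region the balanced means were 0.9499 ± 0.00976 and 0.964 ± 0.0252, and for the small single copy region 0.994 ± 0.0451 and 0.889 ± 0.0807 (SD, n = 4 each), with adjusted p of 0.314 and 0.171 in the same exact permutation tests.

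By block of neighbouring places, the operon's contacts rose most with ycf2. Of all 189 block pairs tested in the genome, 31.7% were higher, 33.3% lower and 50.8% without overlap. The operon was tested against 19 blocks, of which 10 were higher, 0 lower and 9 without overlap (edgeR, adjusted p under 0.05). The median log2 change was 0.36 over the operon's block pairs and 0.02 over all block pairs. With all contacts as the scale, the median block pair rose by 0.68 and no operon block pair was called (0 at an unadjusted p under 0.05).

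The block 87001 to 94000 holds ycf2, the longest reading frame of the plastid genome. Its contacts with the operon per 10000 long-range contacts, scaled by TMM, were 224, 163, 182 and 127.9 in crosslinked libraries and 86.8, 99.2, 55.7 and 44.8 in non-crosslinked libraries. The groups did not overlap, and the log2 change was 1.10 ± 0.33 (edgeR, adjusted p = 0.0051). In the deeper libraries alone the change was 1.06, in the shallower ones 1.63.

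The other repeat blocks rose as well. The block of rpl2 and rpl23, which encode proteins of the large ribosomal subunit, changed by 0.78 ± 0.14 (84001 to 87000) and the block of trnR and trnN by 0.76 ± 0.13 (108001 to 111000), with adjusted p of 9.44e-06 and 5.76e-06 in edgeR. The block of ndhB and rps7 (94001 to 101000) changed by 0.60 ± 0.20 (edgeR, adjusted p = 0.00853), a value that rests on pairs 5 to 10 kb apart, since over 10 kb it was 0.04 (edgeR, adjusted p = 0.904). The block of trnR and trnN lies beside the operon, and all its pairs were under 10 kb apart, so its change has no value over 10 kb.

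In the large single copy region, 6 of 12 blocks rose. The block of ycf3, which encodes an assembly factor of photosystem I, and ndhJ (42001 to 49000) had 132, 119, 119 and 101.1 contacts per 10000 in crosslinked libraries and 77.6, 78.1, 15.9 and 44.8 in non-crosslinked libraries. No value overlapped, and the log2 change was 0.79 ± 0.21 (edgeR, adjusted p = 0.00145). The block of psbA, which encodes the D1 protein of photosystem II, and matK (1 to 7000) changed by 0.62 ± 0.18 (edgeR, adjusted p = 0.00326).

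Smaller changes were found with the blocks of atpB and rbcL (0.44 ± 0.18), psbB and petB (0.43 ± 0.14), psaA and psaB (0.37 ± 0.16) and accD and petA (0.36 ± 0.14), with adjusted p of 0.0293, 0.00744, 0.0444 and 0.0266 in edgeR. The calls for atpB and rbcL, psaA and psaB, and accD and petA were each lost without some 1 library of either group (edgeR, adjusted p of up to 0.160), and those for the latter 2 also with DESeq2 (adjusted p of 0.0699 and 0.107). The log2 changes with the blocks of rpoB and trnC (-0.01 ± 0.14), atpI and rpoC2 (0.00 ± 0.16) and psbD and psbC (0.10 ± 0.18) did not pass the test. Nor did those with the 3 small single copy blocks, at 0.13, 0.03 and -0.08 from ndhF to ycf1.

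**Figure D4:**
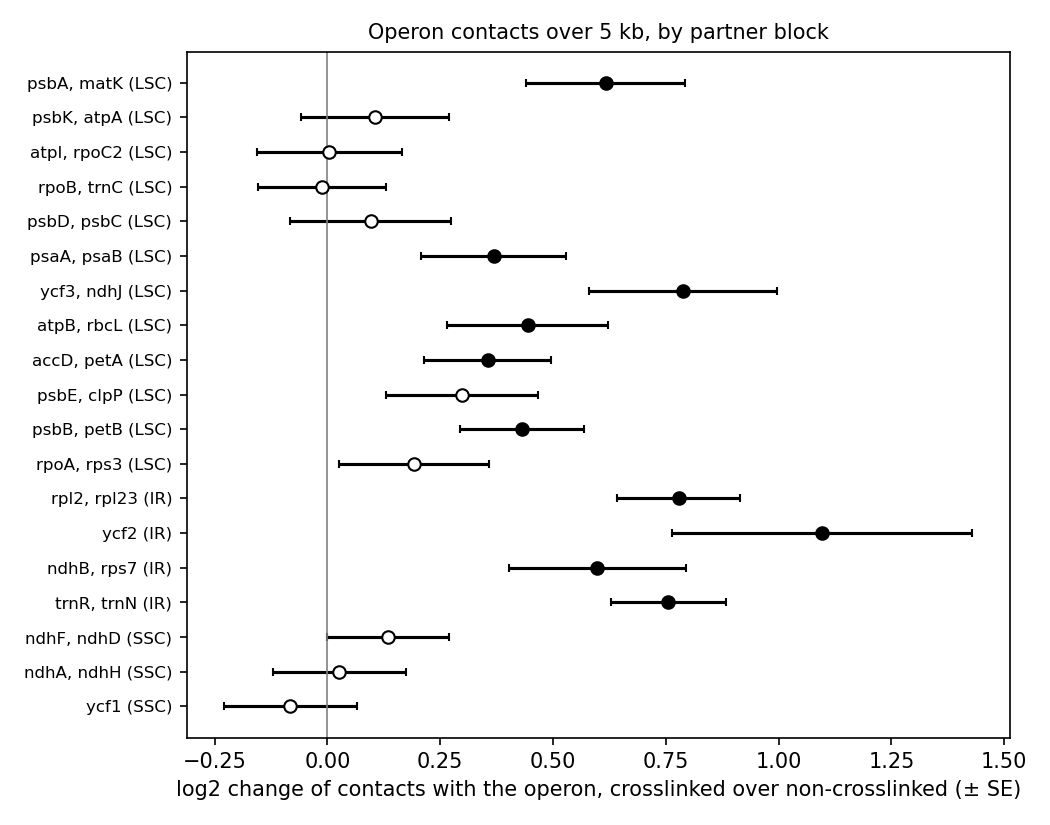
Log2 change of the operon's contacts over 5 kb with each of 19 partner blocks, crosslinked over non-crosslinked, with its SE, in map order; filled points passed the edgeR test at an adjusted p under 0.05 and open points did not. The 10 filled points are all above 0, the highest at ycf2, and the 3 blocks of the small single copy region (SSC) are open.

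After balancing, the order of the blocks differed from the order of the changes. The block of ndhB and rps7 had 1.28 ± 0.126 times the contacts expected from the totals with crosslinks and 1.34 ± 0.244 times without, and the ycf2 block 1.11 ± 0.0694 and 1.34 ± 0.214 times (SD, n = 4 each). The ycf2 block, whose contacts with the operon rose most before balancing, was thus lower with crosslinks after it, by 0.227, with overlap between groups. The block of trnR and trnN had 1.25 ± 0.0815 times with and 0.998 ± 0.269 times without crosslinks. Of the large single copy blocks, psaA and psaB had 0.940 ± 0.0411 times with and 1.22 ± 0.192 times without crosslinks, and rpoA and rps3 had 1.05 ± 0.0933 and 0.773 ± 0.203 times. The balanced values of 6 of 19 blocks did not overlap between groups, the latter 3 among them, each with p = 0.0286 and an adjusted p of 0.0905 (exact permutation tests, Benjamini-Hochberg over 19), so none passed. A share over all block pairs of the genome was not computed on this scale.

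The profile of the operon along single places was tested in a table of 2242 rows, of which 20.4% were higher, 20.9% lower and 31.7% without overlap. The operon had 121 tested partner places, of which 40 were higher, 8 were lower and 33 did not overlap. The median log2 change was 0.30 for the operon and 0.05 over all rows. In the large single copy region 24 of 84 places were higher and 6 lower, in the repeat 12 of 20 and 0, and in the small single copy region 4 of 17 and 2. Over all rows with partners in the same regions, 18.2% were higher and 22.4% lower in the large single copy region, 35.8% and 2.07% in the repeat and 6.35% and 43.8% in the small single copy region. DESeq2 called 26 operon rows and edgeR without non-crosslinked replicate 1 called 29, while with all contacts as the scale the median row rose by 0.69 and 0 were called (3 at an unadjusted p under 0.05).

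The largest rises were at ycf2. The place 92001 to 93000, within ycf2, had 157, 57, 48 and 17 contacts with the operon in crosslinked libraries and 31, 28, 1 and 0 in non-crosslinked libraries. The log2 change was 1.77 ± 0.26 (edgeR, adjusted p = 1.59e-08), without overlap in the scaled counts. The places 88001 to 89000, also within ycf2, and 86001 to 87000, with rpl23, trnI and the start of ycf2, changed by 1.57 ± 0.26 and 1.51 ± 0.27 (edgeR, adjusted p of 6.55e-07 and 3.31e-06). The own long-range totals of these places, in the order named, rose by 1.54, 1.45 and 1.21, so their rise was not confined to the operon.

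Of the large single copy places without overlap, the highest was 59001 to 60000, at 1.29 ± 0.24 (edgeR, adjusted p = 8.19e-06). It holds psaI, a small subunit of photosystem I, and ycf4, an assembly factor of the same complex. Next was 25001 to 26000 within rpoB, a subunit of the plastid-encoded RNA polymerase, at 1.14 ± 0.23 (edgeR, adjusted p = 1.91e-05). The ycf3 place 42001 to 43000, where the groups overlapped, rose by 1.17 ± 0.23 (edgeR, adjusted p = 2.45e-05). The place of psaI held 75, 45, 14 and 12 operon contacts in crosslinked and 28, 13, 1 and 2 in non-crosslinked libraries. Its own long-range total changed by 0.26 on the log2 scale, and that of the rpoB place by 1.13.

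Only 3 places were lower without overlap. The place 27001 to 28000, with trnC, held 37, 16, 12 and 4 operon contacts in crosslinked and 80, 61, 4 and 7 in non-crosslinked libraries. The groups did not overlap once the counts were scaled, and the log2 change was -1.34 ± 0.22 (edgeR, adjusted p = 5.14e-07). The place 124001 to 125000 within ycf1, which encodes a component of the protein import machinery, changed by -0.88 ± 0.21 and 14001 to 15000, with atpI, a membrane subunit of ATP synthase, by -0.62 ± 0.22 (edgeR, adjusted p of 0.000482 and 0.017). In the shallower libraries alone none of the 3 passed, with changes of -0.64, -0.35 and -0.20 (edgeR, adjusted p of 0.216, 0.489 and 0.691). The atpI call was also lost with DESeq2 (adjusted p = 0.185) and without replicate 2 of the crosslinked or the non-crosslinked libraries (edgeR, adjusted p of 0.0598 and 0.244). Over 10 kb the ycf1 place changed by -0.48 and was not called (edgeR, adjusted p = 0.128). The own long-range totals of the trnC, ycf1 and atpI places changed by -1.63, -1.39 and -0.85 on the log2 scale, so their fall was not confined to the operon.

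The changes of the operon's partners ran with the partners' own changes. Of the 48 called partners, 44 had a change of the same sign in their total of long-range contacts, and in 34 that total was itself called. Over all places 32.8% of these totals were called higher and 36.7% lower, so the count of 34 is not set apart from that background. The totals include the contacts with the operon, and signs were not counted for partners that were not called. With pooled contacts, the log2 change of a partner's share with the operon and its change with places outside the operon had Pearson's r = 0.85 and Spearman's rho = 0.83 over 121 partners. Both axes come from the same 8 libraries and places, so these values are a description. The psaI place was among those above the diagonal, with pooled log2 changes of 1.09 with the operon and 0.31 with places outside it.

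**Figure D5:**
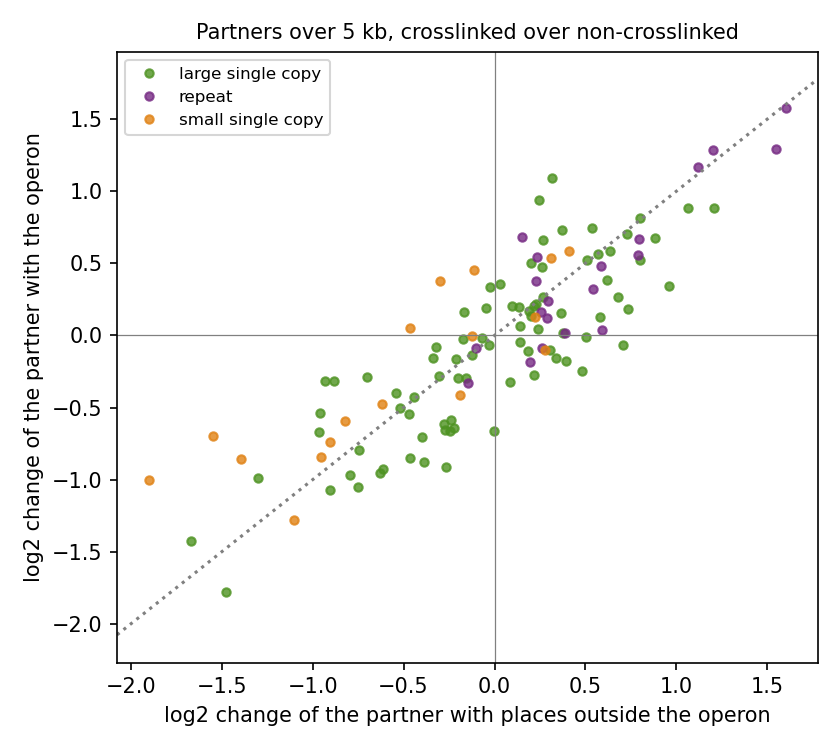
Log2 change, crosslinked over non-crosslinked, of each of 121 partner places' share of contacts over 5 kb with the operon (vertical) against the same change with all places outside the operon (horizontal), from contacts pooled over the 4 libraries of each group, with the dotted line marking equality. The points follow the line, with r = 0.85, and repeat places lie mostly to the upper right.

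Partner genes were grouped by function. Each gene was counted once, at the place that holds most of its length, so that genes sharing a place share a value, and the other places of long genes are given beside the counts. The counts read against 20.4% higher and 20.9% lower over all rows of the table, and against 33.1% higher and 6.61% lower over the operon's own 121 partner places.

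Of 23 genes of the photosystems and Rubisco, 7 (30.4%) were at places that rose with the operon and 0 at places that fell, with a median log2 change of 0.51 against 0.30 over the operon's partners. They included psaI, ycf3 (1.02 ± 0.24), psbE and psbF at the same place (0.89 ± 0.24) and psbB (0.55 ± 0.22), with adjusted p of 0.000227, 0.00166 and 0.0355 in edgeR for the latter places. Over all 29 places that hold part of such a gene, 10 rose and 1 fell. Long genes differed along their length. The place with most of psbA had a log2 change of 0.51 (edgeR, adjusted p = 0.0664) and the next one rose by 0.83 (adjusted p = 0.00224). For psbD these were -0.51 (adjusted p = 0.0512) and a rise of 0.65 (adjusted p = 0.0132), and for rbcL 0.29 (adjusted p = 0.306) and a fall at the place shared with atpB (-0.64, adjusted p = 0.0137).

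Of 11 genes of the NDH complex, a thylakoid dehydrogenase of cyclic electron flow, 5 (45.5%) rose and 0 fell, with ndhJ at 0.84 ± 0.24 (edgeR, adjusted p = 0.00281) and ndhA lowest at -0.37 (edgeR, adjusted p = 0.167). Over all 19 of their places 9 rose and 0 fell. Of 21 ribosomal protein genes 6 (28.6%) rose and 0 fell, with rpl23 highest at 1.51 and rps2 lowest at -0.48 (edgeR, adjusted p = 0.0848), while over all 21 of their places 5 rose and 1 fell. The share of ribosomal protein genes that rose was close to that of all partner places. Both NDH and ribosomal protein genes lie partly in the repeat beside the operon, as do rpl23, ndhB and rps7.

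ATP synthase genes differed among themselves. At atpE the change was 0.97 ± 0.23 (edgeR, adjusted p = 0.000287), at a place that also holds part of atpB, while atpI and its neighbour atpH fell by 0.62 and by 0.57 on the log2 scale (edgeR, adjusted p of 0.017 and 0.0269). At the places with most of their length the other 3 genes did not pass, and over all 9 places 1 rose and 3 fell. Of 6 cytochrome b6f genes only petL was called at the place counted, lower by 1.00 ± 0.22 (edgeR, adjusted p = 0.000127), but a further place with parts of petB and petD rose by 0.88 ± 0.22 (edgeR, adjusted p = 0.000817). Of the 4 RNA polymerase genes only rpoA was called at the place counted, at -0.64 ± 0.23 (edgeR, adjusted p = 0.0167). Over all 14 places of these genes 3 rose and 1 fell, the rises being 1 place within rpoC2 (0.96) and 2 within rpoB (1.14 and 0.75), with adjusted p of 0.00124, 1.91e-05 and 0.00682 in edgeR. Of 27 transfer RNA genes tested 7 (25.9%) rose and only trnC fell, a share of rises below that of all partner places. Over all 28 places that hold part of such a gene, 11 (39.3%) rose and 1 fell, a share of rises above that of all partner places.

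Compared with like blocks of the same repeat, the operon's long-range contacts with the single copy regions were not shown to respond differently. Partners inside the repeat were left out of these ratios. The operon's log2 ratio to the ycf2 block was 0.25, 0.31, 0.04 and 0.09 in crosslinked and 0.72, 0.77, 0.00 and 0.12 in non-crosslinked libraries. It thus had as many such contacts as ycf2 or more in all 8 libraries. The difference of -0.23 was within the spread (exact permutation test, adjusted p = 0.371 over 2 blocks), with -0.47 among the deeper and 0.00 among the shallower libraries. Against the block of ndhB and rps7 the log2 ratio was 0.36, 0.42, 0.25 and 0.18 in crosslinked and 0.31, 0.38, -0.44 and -0.29 in non-crosslinked libraries. The operon was above that block in the crosslinked and the deeper non-crosslinked libraries and below it in the shallower non-crosslinked ones, with a difference of 0.32 that was within the spread (exact permutation test, adjusted p = 0.371). With partners inside the repeat included, the differences were -0.24 against ycf2 and 0.28 against ndhB and rps7 (exact permutation tests, adjusted p = 0.343 for each).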

How the data were processed

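Per the file headers, the authors deposited 1 table of raw contact counts, not normalized, for bins of 1 kb of the plastid chromosome (TAIR10), with a column for each of 8 libraries. The submitters' processing notes name Trim Galore 0.4.1 and Juicer; how reads from the repeat were placed is not given in the sources used here. Images were taken as bins whose index sums to 238 or, across the bin boundary, 237, and pairs between images as sums of 236 to 239. Tests across rows used edgeR 4.0.16 (quasi-likelihood, TMM, filterByExpr with a minimum count of 10, prior count 2) in R 4.3.3 on 4 whole tables, with Benjamini-Hochberg adjustment over each table and a threshold of 0.05. Values per library were tested by exact permutation (two-sided, 70 assignments). On simulated data, 95.9% of 74 pairs changed 2-fold among 370, 100% of 25 places among 128, 100% of 37 block pairs among 189 and 68.0% of 200 profile rows among 2242 were recovered. False calls made up 4.05%, 3.85%, 0% and 2.86% of the rows called. The simulated libraries were independent, with the same spread set for every row and no pairing of replicates, so these shares do not carry over to the real counts. Same-numbered libraries deviated together in the pair table, with correlations of 0.898, 0.264, 0.394 and 0.687, but not in the others, where some were below 0. Named partners are up to 5 called places per direction with the largest change and no overlap, not within 1 place of another; gene lists follow function. Other steps ran in Python 3.11.15 with scipy 1.17.1, pandas 2.3.3 and numpy 2.4.6. Gene names came from a RefSeq table of TAIR10.1. Members, lists and tests were chosen with earlier results of these data known. Alternatives tried were DESeq2 1.42.0, other scales and filters, blocks for replicate and depth, other distances and leaving out each library.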

Additional observations from a re-analysis of the deposited data

Results flagged for a closer look

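Among 78 sets of 4 libraries, 4 held a library whose value was far from the other 3, and by chance about 1 set in 20 passes this criterion. Values are operon contacts per 10000 long-range contacts, scaled by TMM. Crosslinked replicate 1 had 225.5 at the rrn23S place 106001 to 107000, against 189.3 to 191.6 in the other crosslinked libraries. For the small single copy blocks, non-crosslinked replicate 4 had 58.97 with 111001 to 118000 against 74.1 to 77.2, non-crosslinked replicate 3 had 55.66 with 118001 to 125000 against 82.4 to 86.8, and crosslinked replicate 3 had 22.82 with 125001 to 128000 against 26.7 to 27.5. None of these rows was called between the groups.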

How the results depend on the processing

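With another setting, the count of called operon rows of the pair table, 14, became 30 with no filter, 32 with the replicate block, 32 with depth class as a block and, in the 4 deeper libraries alone (chosen after seeing the data), 88 of 300 tested; leaving out 1 library gave 6 to 31. Called places (4), block pairs (10) and profile rows (48) each fell to 0 with the library size taken from all contacts, and the replicate block gave 4, 10 and 47. Profile rows were 26 with DESeq2 and 30 of 41 tested in the shallower libraries alone. Leaving out 1 library gave 3 to 4 places, 7 to 10 block pairs and 29 to 51 profile rows. Shares over the whole tables are not given for these settings, so the counts describe the operon rows only. The operon's share of all contacts differed by -0.288 points over different bins only, and by -0.0937 to 1.76 with 1 library left out (-0.0937 and -0.0179 without non-crosslinked replicates 3 and 4). Its long-range share differed by -0.331 with circular distance and by 4.18 to 6.44 with 1 library left out. Observed over expected differences were 0.00839 over 10 kb and 0.294 unbalanced for the large single copy region (-0.0248 to -0.00440 with 1 library left out) and 0.509 unbalanced for the repeat (-0.189 to -0.124). With 1 library left out they were 0.0771 to 0.130 for the small single copy region. The ratio of contacts 2 to 6 kb apart differed by 0.106 against the large single copy region and by -1.42 to -0.655 with 1 library left out. The log2 ratios to the ycf2 and ndhB blocks differed by -0.37 to -0.11 and 0.17 to 0.44. Single items that turned were the pair 105001 and 106001 with no filter (-0.0285, edgeR adjusted p = 0.977) and the atpI place with all contacts as the scale (0.0315, edgeR adjusted p = 0.994). The causes were not tested. Precision is limited in non-crosslinked replicates 3 and 4, whose 206 and 381 long-range operon contacts go with a low long-range percentage and not with a low total of contacts.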
